A study of Saccharomyces cerevisiae with 47 samples.

Results

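The secretory pathway genes described here are the R64 protein-coding genes whose symbol is SEC, BET, BOS, TRS or ERP followed by digits, together with COP1, RET2, RET3, SAR1, SFB2 and SFB3. The rule found 62 genes of 6002 on the 16 nuclear chromosomes. Each was described by the Reb1 and Abf1 sites whose centre lay within 500 bp upstream of its start codon. Proteins enter this pathway by crossing the membrane of the endoplasmic reticulum (ER), leave the ER in vesicles with a COPII coat, are captured and fused at the Golgi by tethers and SNARE proteins, and reach the plasma membrane by way of the exocyst tether, while COPI vesicles carry material back. Many of these genes were named from temperature-sensitive yeast mutants that accumulate secretory cargo. Reb1 and Abf1 belong to the general regulatory factors, yeast proteins that bind short DNA motifs in promoters and help keep nucleosomes away from them.

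The study assembled yeast plasmid library DNA and recombinant yeast histone octamers into chromatin in vitro, added factor and remodeler, crosslinked and digested the chromatin with MNase, and pulled down the Strep-tagged factor. Its 47 samples were 24 pulldowns and 23 inputs. Reactions of the Reb1 and of the Abf1 series held no factor and no remodeler (the control), factor alone at 50 nM, or factor with 1 remodeler (24 nM of Chd1, ISW2 or INO80, or 12 nM of RSC), with at most 2 replicates per group. What could be analysed was a list of motif sites for each factor, with 942 distinct sites of 10 bp for Reb1 and 1365 of 16 bp for Abf1. Neither list names samples, so replicate spread, depth and the effect of each remodeler could not be read from them. Every interval below is an exact 95% binomial interval over genes or sites and covers counting error only. No test was run over these genes, because they were chosen with results of these data known, and neighbouring genes can share a site. Per the series text the DNA came from chromosomes V to IX, where 16 of the 62 genes lie, while the site lists cover all chromosomes.

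The share of genes with an upstream Reb1 site was higher among members than among all protein-coding genes, and the share with an Abf1 site was not. A Reb1 site was present at 15 of 62 members (24.2%, 95% interval 14.2 to 36.7), against 12.5% of all protein-coding genes (753 of 6002). An Abf1 site was present at 6 of 62 (9.68%, 3.63 to 19.9), against 13.5% (809 of 6002). The interval for Abf1 includes the share of all genes. With either factor counted, 19 of 62 members had a site (30.6%, 19.6 to 43.7), against 24.7%, so the combined share was near the background. Of the 19, 13 had Reb1 alone, 4 had Abf1 alone and 2, SEC17 and SEC21, had both (3.23%, 0.393 to 11.2), against 1.35% of all genes. No member had more than 1 site of a factor within 500 bp. With only sites at or above the median score of their list, the Reb1 share fell both for members, to 12.9% (8 of 62), and for all genes, to 7.26%. With only sites listed in at least 2 rows it was 19.4% of members (12 of 62), against 10.6% of all genes. No interval was computed for either setting, so whether these shares differ from the background beyond counting error cannot be read from them. On chromosomes V to IX alone the Reb1 share was 6 of 16 members (37.5%, 15.2 to 64.6), against 13.3% of the genes there.

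**Figure D1:**
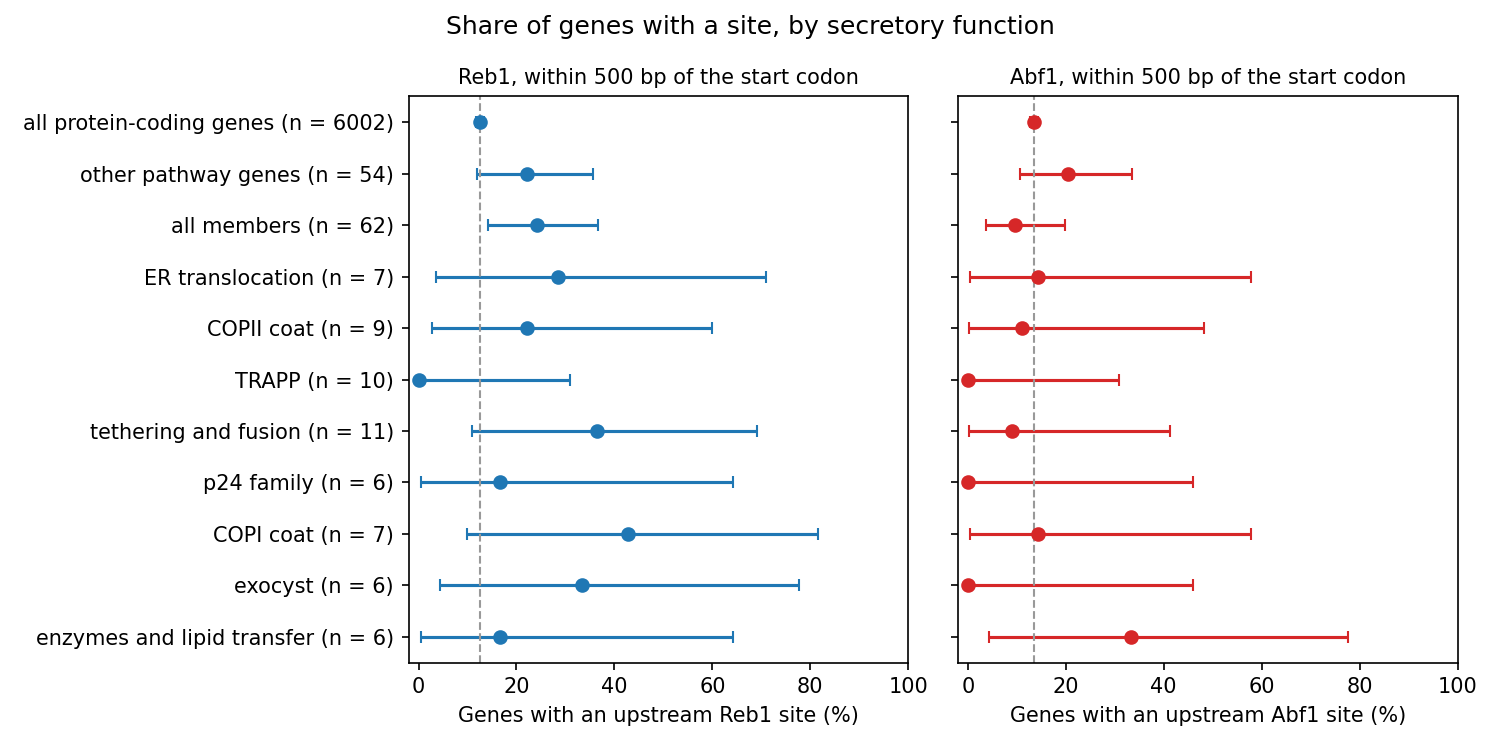
Share of genes (x axis, percent) with a Reb1 site (left) or an Abf1 site (right) within 500 bp upstream of the start codon, for all protein-coding genes, the other pathway genes, all members and each functional class (y axis, with n). Points are shares, bars are exact 95% binomial intervals and the dashed line is the share of all protein-coding genes; TRAPP lies at 0 in both panels, and every class interval is wide.

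At the entry into the ER, 3 of 7 translocation genes had a site. SEC61 (YLR378C), which encodes the pore subunit of the translocation channel, had a Reb1 site centred 370 bp upstream on chromosome XII, from 877544 to 877553. That site carried the highest score of the Reb1 list, 14.3, shared by 39 sites, and was listed in 5 identical rows, the largest number in the list. It lies inside YLR379W-A, a small open reading frame on the other side of the 265 bp gap next to SEC61. SEC66 (YBR171W), a subunit of the complex for translocation after synthesis, had a Reb1 site at 148 bp with a score of 12.9, and the same site lay 130 bp upstream of the divergent gene NPL4, which encodes a cofactor of the Cdc48 ATPase. SEC62 (YPL094C), of the same translocation machinery, had an Abf1 site at 115 bp, the shortest distance of any member. Its score of 10.8 ranked 1224 of 1365, and the site was shared with NOG1, a ribosome biogenesis gene, at 200 bp. The genes without a site were SEC63 and SEC72 of that complex, SEC65 of the signal recognition particle and SEC11, the catalytic subunit of signal peptidase. The upstream gap of SEC11 was only 6 bp, the shortest of all members.

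In the COPII coat, 3 of 9 genes had a site, 1 in the inner layer and 2 in the outer cage. SEC24 (YIL109C), the cargo-binding subunit of the inner layer, had a Reb1 site at 406 bp on chromosome IX, from 160567 to 160576. Like the SEC61 site it had the top score of 14.3 and was listed in 5 rows, and it lay 316 bp upstream of the divergent gene YIL108W. The cage genes differed in factor. SEC13 (YLR208W) had a Reb1 site at 209 bp, with a score of 12.2 just under the list median of 12.3. SEC31 (YDL195W) had an Abf1 site at 234 bp, with a score of 13.5 that ranked 228 of 1365, also 480 bp upstream of ASF2. SEC23, the partner of SEC24 in the inner layer, had no site, and neither did SFB2 and SFB3, which encode relatives of Sec24. SAR1, the GTPase that starts coat assembly, SEC12, its exchange factor, and SEC16, the scaffold of ER exit sites, also had none.

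None of the 10 TRAPP genes had a site of either factor within 500 bp, which allows a share of up to 30.0%. TRAPP is a tether at the Golgi and the exchange factor of the GTPase Ypt1. Since 30.0% is above the 24.7% of all genes, a lower share than the background was not detectable with 10 genes. Just outside the limit, TRS31 had an Abf1 site at 531 bp, and the nearest site of either factor for the 10 genes lay between 531 and 22530 bp upstream (median 5984 bp). For all 62 members the median of that distance was 3527.5 bp. The gap to the next gene upstream had a median of 301.5 bp at TRAPP genes and 320.5 bp at all members.

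**Figure D2:**
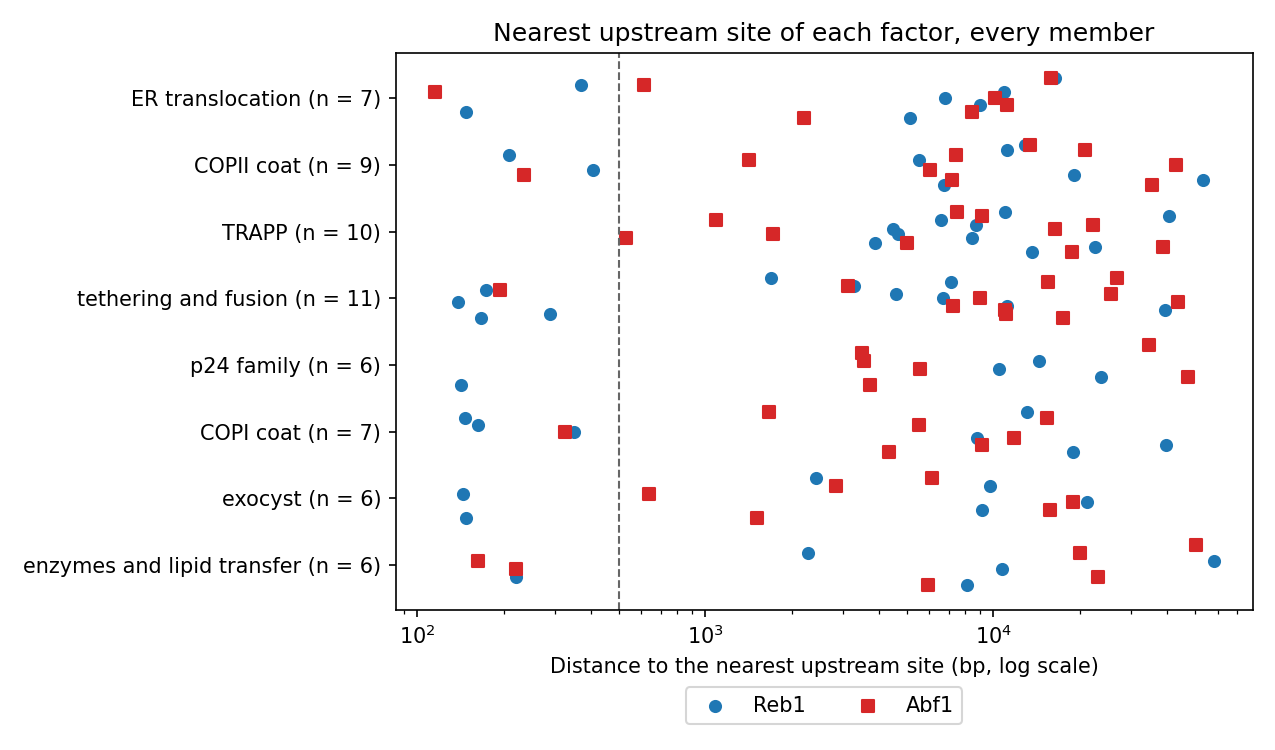
Distance from the start codon to the nearest upstream Reb1 site (circles) and Abf1 site (squares) on the same chromosome for every member (x axis, bp, log scale), by functional class (y axis, with n). The dashed line marks 500 bp; all TRAPP genes lie to its right, with TRS31 closest at 531 bp, and 4 members without any Reb1 site upstream have no circle.

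Among genes of tethering and membrane fusion, 4 of 11 had a site, each with Reb1 and SEC17 also with Abf1. SEC17 (YBL050W) encodes the adaptor that brings the ATPase Sec18 to used SNARE complexes. Its Reb1 site lay at 173 bp and its Abf1 site at 194 bp, so the centres were 21 bp apart. Both sites also lay upstream of PIN4, at 193 and 172 bp, in a divergent promoter of 365 bp. SEC4 (YFL005W), the Rab GTPase of secretory vesicles, had a Reb1 site at 290 bp with a score of 13.7, which ranked 40 of 942. SEC9 (YGR009C), a SNARE of the plasma membrane, had a Reb1 site at 166 bp with a score of 12.6. SEC20 (YDR498C), a SNARE of retrograde traffic to the ER, had a Reb1 site at 138 bp, the shortest Reb1 distance among members, with a score of 11.9 and in 1 row. Those without a site were the SNARE genes BET1, BOS1 and SEC22, the SNARE regulator SEC1, SEC18, SEC2, which encodes the exchange factor of Sec4, and SEC39 of the Dsl1 tether. The symbol rule takes in only the ERP genes of the p24 family, membrane proteins that cycle between ER and Golgi. Of these 6 members, ERP6 (YGL002W) had a Reb1 site at 142 bp. Its score of 11.3 ranked 842 of 942, and the site lay 201 bp upstream of CDH1, an activator of the anaphase-promoting complex.

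In the COPI coat, 3 of 7 genes had a Reb1 site, and 1 of them also had an Abf1 site. RET2 (YFR051C), the delta subunit gene, had a Reb1 site at 147 bp with a score of 12.9. Its promoter is a divergent gap of 701 bp shared with RPN12, a proteasome gene, and held another Reb1 site, 571 bp from RET2 and so just outside the limit. RET3 (YPL010W), the zeta subunit gene, had a Reb1 site at 163 bp that also lay 152 bp from TAF3, a TFIID gene, with a score of 11.7 and in 1 row. SEC21 (YNL287W), the gamma subunit gene, had an Abf1 site at 325 bp and a Reb1 site at 350 bp, with centres 25 bp apart on chromosome XIV (Abf1 from 91662 to 91677, Reb1 from 91640 to 91649). The Abf1 score of 13.5 ranked 225 of 1365, while the Reb1 score of 11.4 ranked 794 of 942. COP1, SEC26, SEC27 and SEC28, the alpha, beta, beta-prime and epsilon subunit genes, had no site. Over all 81 genes with both factors the closest pair of sites had a median spacing of 35 bp, and at 35 of them (43.2%) it lay within 25 bp, as at SEC17 and SEC21.

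At the exocyst, 2 of 6 genes had a site, and both sites were of Reb1. SEC3 (YER008C), a subunit that marks sites of exocytosis, had it at 144 bp with a score of 12.0, in a divergent promoter of 296 bp shared with NTF2, a nuclear transport gene, at 153 bp. SEC8 (YPR055W) had it at 148 bp with a score of 13.5, ranked 107 of 942 and listed in 5 rows. The genes SEC5, SEC6, SEC10 and SEC15 had none. Of the 6 members that encode enzymes and lipid carriers, SEC14 (YMR079W), the phosphatidylinositol transfer protein, had an Abf1 site at 163 bp that lay 98 bp from CTF18. SEC53 (YFL045C), the phosphomannomutase that feeds glycosylation, had an Abf1 site at 221 bp, and SEC59 (YMR013C), the dolichol kinase, a Reb1 site also at 221 bp. The Arf exchange factor gene SEC7 and BET2 and BET4, which encode the enzyme that attaches lipid to Rab proteins, had none.

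Across these classes, the share of genes with a site of either factor was 42.9% for translocation (9.90 to 81.6), 42.9% for COPI (9.90 to 81.6), 33.3% for COPII (7.49 to 70.1), 33.3% for the exocyst (4.33 to 77.7) and 0 for TRAPP. These intervals overlap one another and the 24.7% of all genes, so no order of the classes could be read from them. Removing 1 gene from the counts of translocation or COPI, as 4 alternative settings each did, brought those shares to 28.6%.

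**Figure D3:**
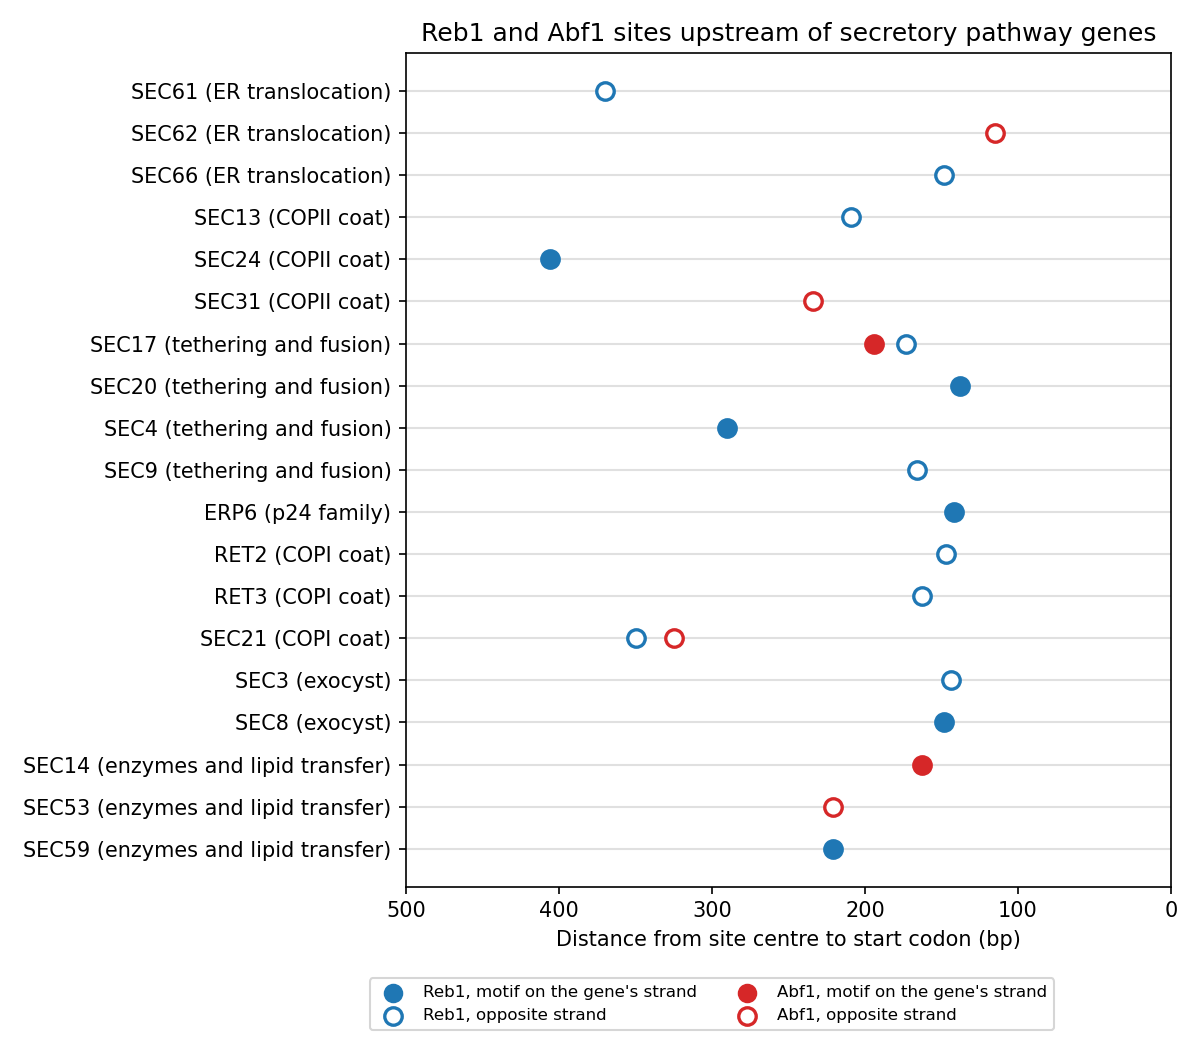
Distance from the centre of each Reb1 site (blue) and Abf1 site (red) to the start codon (x axis, bp, start codon at the right) for the 19 members with a site (y axis, class in brackets). Filled circles have the motif on the strand of the gene and open circles on the opposite strand. Between 100 and 200 bp fall 9 of 15 Reb1 sites (60.0%), against 48.2% over all pairs of a gene and an upstream Reb1 site. SEC17 and SEC21 carry both factors.

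Most Reb1 sites of members lay 100 to 200 bp from the start codon. The 15 Reb1 distances ran from 138 to 406 bp with a median of 166 bp, and 9 of them (60.0%, 32.3 to 83.7) fell between 100 and 200 bp. Over all 813 pairs of a gene and an upstream Reb1 site distances ran from 1 to 500 bp and the median was 198 bp, with 48.2% between 100 and 200 bp. The interval of the members includes that 48.2%. The 6 Abf1 distances ran from 115 to 325 bp with a median of 207.5 bp, and those of all 926 pairs from 2 to 500 bp with a median of 212.5 bp. Between 100 and 200 bp lay 3 of the 6 (50.0%, 11.8 to 88.2), against 44.4% of all pairs. The Reb1 motif was on the strand of the member in 6 of 15 cases (40.0%, 16.3 to 67.7) and the Abf1 motif in 2 of 6 (33.3%, 4.33 to 77.7), against 47.2% and 49.8% over all pairs. Both intervals include the share over all pairs.

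Scores of member sites spanned nearly the whole Reb1 list. They ran from 11.3 at ERP6 to 14.3 at SEC24 and SEC61, with a median of 12.6, the same as for all upstream Reb1 pairs. Of the 15 Reb1 sites 8 were at or above the list median (53.3%, 26.6 to 78.7), against 56.2% of all pairs. For Abf1, scores ran from 10.8 to 13.5, below the list maximum of 16.1, and 4 of 6 were at or above the median of 12.0 (66.7%, 22.3 to 95.7), against 65.4% of all pairs. The 2 Reb1 sites with the top score were also the 2 farthest from the start codon, at 370 and 406 bp. The next farthest, at SEC21, had a low score of 11.4. Among member sites, 3 of Reb1 (SEC8, SEC24, SEC61) and 3 of Abf1 (SEC17, SEC21, SEC31) were listed in 5 rows. Another 3 Reb1 sites (RET3, SEC20, SEC59) were listed in 1 row. The labels do not say what a repeated row stands for.

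**Figure D4:**
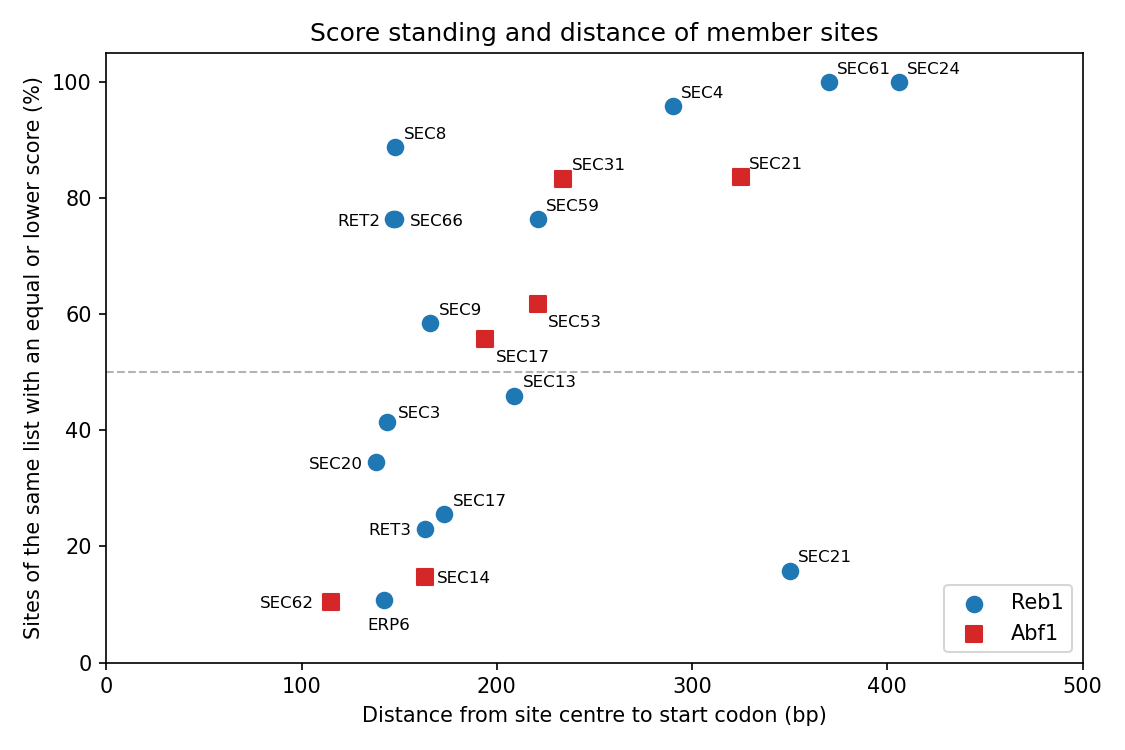
Share of sites in the same list with an equal or lower score (y axis, percent) against the distance of the site centre from the start codon (x axis, bp) for the 15 Reb1 sites (circles) and 6 Abf1 sites (squares) of members. The dashed line marks 50%; SEC24 and SEC61 stand at the top and far from the start codon, while SEC21 has a Reb1 site at 350 bp with a low score.

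Of the 19 members with a site, 10 shared at least 1 site with another gene that also had it within 500 bp upstream. In all, 11 of the 21 sites were shared, and the member was the nearer gene for 6 of them. By factor, 46.7% of the Reb1 sites of members (21.3 to 73.4) and 66.7% of their Abf1 sites (22.3 to 95.7) were shared, against 41.9% and 45.0% over all pairs, which both intervals include. Members whose next gene upstream is divergent had a Reb1 site in 11 of 37 cases (29.7%, 15.9 to 47.0), and members with a tandem neighbour in 4 of 25 (16.0%, 4.54 to 36.1). For all genes the shares were 14.1% of 3120 and 10.9% of 2873. Both member intervals are wide and overlap, and the difference between them was not tested. Divergent neighbours were present at 37 of the 62 members, against 3120 of all 6002 protein-coding genes. The median upstream gap was 337 bp at members with a divergent neighbour, against 508 bp over all such genes. With a tandem neighbour it was 306 bp, against 400 bp. Whether gap length affected the shares of genes with a site was not tested.

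Abf1 sites also lay inside members. The coding extents of 11 of 62 members held at least 1 Abf1 site (17.7%, 9.20 to 29.5), against 8.68% of all protein-coding genes, and 1 member, SEC5, held a Reb1 site (1.61%, 0.0408 to 8.66), against 3.60%. Per length the members held 10.9 Abf1 sites per 100 kb of coding extent (12 sites in 110 kb), against 7.44 for all genes, with median coding lengths of 1284 and 1200 bp. The 110 kb belong to 62 members and 8860 kb to all 6002 genes, so members were longer by mean length, and by more than the medians show. The shares of genes were not adjusted for length. No interval was computed for the rates per length, and their difference was not tested. The 11 genes were SEC61, SEC24, TRS31, TRS33, SEC20, SEC9, SEC21, SEC26, SEC15, SEC5 and SEC53, the last with 2 sites, and they were named after their values were seen. Their positions ranged from near the start, 169 bp after the start codon of SEC61 and 319 bp after that of SEC21, to near the end, 98.8% of the way along SEC20. Of the 12 sites, 10 scored below the Abf1 list median, as did 439 of the 658 Abf1 sites inside any gene (66.7%). With only 12 sites in members, a difference between these counts was not tested. Of the 10 TRAPP genes, which had no upstream site, 2 held an Abf1 site, TRS31 and TRS33. The count was also 2 in each of the fusion, COPI and exocyst classes, so it was not particular to TRAPP.

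Further genes of the pathway, listed by known role and without the symbols used above, had sites of both factors. Of 54 such genes, 12 had a Reb1 site (22.2%, 12.0 to 35.6) and 11 an Abf1 site (20.4%, 10.6 to 33.5), with 1, the Arf GTPase gene ARF1, having both (Reb1 at 267 bp, Abf1 at 229 bp). Over all genes the shares were 12.5% for Reb1 and 13.5% for Abf1, which the 2 intervals include. Shortest in distance for Reb1 were SNC1, a vesicle SNARE gene (120 bp), UFE1, an ER SNARE gene (123 bp), GCS1, an Arf GTPase-activating protein gene (127 bp), and SRP21, of the signal recognition particle (144 bp). For Abf1 they were EMP47, a lectin of COPII vesicles (132 bp), ERV15 (140 bp), YKT6, a SNARE gene (146 bp), and ERV46, a cargo receptor gene (147 bp). Of the 6 COPI partner genes 4 had a site of either factor (66.7%, 22.3 to 95.7), and so did 6 of the 11 COPII cargo receptor and adaptor genes (54.5%, 23.4 to 83.3). The counts were 5 of 17 for translocation (29.4%, 10.3 to 56.0), 6 of 16 for fusion (37.5%, 15.2 to 64.6) and 1 of 2 for TRAPP. All these class intervals include the 24.7% of all genes. The exocyst genes EXO70 and EXO84 had none. The Reb1 share of these genes was close to that of the members, while their Abf1 share was higher than that of the members, 20.4% against 9.68%, with overlapping intervals.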

How the data were processed

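The authors deposited 2 lists of motif sites, each site having a position, a strand and a score; the file names speak of in vitro ChIP, a PWM (position weight matrix) and peaks. The deposited score is not defined in the labels and was compared only within a list. Bowtie, sacCer3 and R64 appear in the submitters' processing notes with no role; peak caller, thresholds, pooling and depth were not stated. Groups came from the titles; per the labels, the coverage track names of some pulldowns carry the other factor's name, and those tracks were not used here. The lists do not say whether coordinates begin at 0 or 1, which leaves each position uncertain by 1 bp.

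Repeated rows (2808 rows for Reb1 and 3699 for Abf1) were merged to distinct sites. Site centres were placed against an R64 table of coding extents, with gene strand read from the systematic name, and a site was counted for every gene it lay within 500 bp upstream of. Members were sorted by known role into 8 classes. Members and lists were chosen with earlier results of these data known. Named genes were all members, members with a site up to 600 bp upstream, and for other pathway genes up to 4 per factor with the shortest distance; other genes were named where they share a site, and exceptions are marked. Intervals are Clopper-Pearson at 95%, and a count of 0 allows 3 counts. The placement of sites was tested on simulated data. Site sequences were not analysed here. Alternatives were windows of 300 and 1000 bp, sites at or above the median score, sites in at least 2 rows, the nearest start codon only, sites outside protein-coding genes, and chromosomes V to IX. Calculations used scipy 1.17.1, pandas 2.3.3 and numpy 2.4.6 in Python 3.11.15, and figures matplotlib 3.10.9.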

Additional observations from a re-analysis of the deposited data

How the results depend on the processing

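Of 63 values from 9 shares under 7 alternatives, 51 stayed within 1.5 times the value reported, 15 of them at exactly that limit, and 12 did not; no share has a test. The TRAPP share of 0 could not change under alternatives that only remove sites or genes. Its unchanged values there were fixed in advance and are counted among the 51. With 300 bp upstream, or with the nearest start codon only, genes with both factors fell to 1.61% of members from 3.23%. Over all genes that share fell to 0.633% and 0.866%, from 1.35%. With 1000 bp upstream the share with both factors was 6.45% of members, against 3.58% of all genes. The TRAPP share was then 10.0% from 0, while either factor over all genes was 31.5% from 24.7%. At or above the median score the Reb1 share was 12.9% from 24.2%, either factor 19.4% from 30.6%, both factors 0, and the exocyst 16.7% from 33.3%. Over all genes the shares also fell, to 7.26% for Reb1, 16.1% for either factor and 0.417% for both. Chromosomes V to IX, with 16 members, gave 37.5% for Reb1, 6.25% for Abf1 from 9.68%, 0 for both factors and 0 of 1 translocation gene. All genes there gave 13.3% for Reb1, 11.8% for Abf1, 1.16% for both and 24.0% for either. The values at the limit were the Abf1 share (14.5% with 1000 bp, where TRS31, SEC3 and SEC61 were added, named after their values were seen; 6.45% at or above the median score and with the nearest start codon only), translocation and COPI at 28.6% from 42.9% under 4 settings each, and COPII at 22.2% under 3 settings and 50.0% on chromosomes V to IX, from 33.3%. Over all genes the Abf1 share was 18.7% with 1000 bp, 9.30% at or above the median score and 10.6% with the nearest start codon only. Either factor over all genes was 18.3% with 300 bp, 20.4% with at least 2 rows, 19.7% with the nearest start codon only and 23.1% outside protein-coding genes. Each class share rests on 6 to 10 genes, so a single gene moves it by 10 percentage points or more. The 1000 bp window can only add sites, and the other alternatives can only remove sites or genes. No paired analysis was possible because the lists carry no samples and the shares come from no test.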
